A study of Rattus norvegicus with 24 samples.

Results

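The aminoacyl-tRNA synthetases were followed through disuse atrophy, recovery and repeated atrophy in the tibialis anterior (TA) of aged rats. Members were taken from the gene symbols of the table: a symbol was kept when it was made of an amino acid letter (or Ep) and "ars", bare or followed by 1, 2, a, b or l2, and the row of highest mean was used where a symbol had several. This gave 32 genes described here of the 13458 symbols in the table. Of these, 13 have symbols that end in 2 and code for mitochondrial enzymes, and 19 code for cytosolic ones. Kars and Gars were counted as cytosolic although each is known to supply the enzyme of both compartments. Eprs, Ears2 and Tars3 are synthetase genes whose symbols the rule did not match, and they are given separately. Iars2 and Mars2 were not analysed here.

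The 24 samples were the left and right TA of 12 male F344 (Fischer) rats aged 23 ± 1 months. In 9 animals the left common peroneal nerve, which drives the TA, was silenced with tetrodotoxin (TTX), a blocker of voltage-gated sodium channels that reached the nerve from an implanted osmotic pump through a cuff. Left limbs were taken after 6–7 days of TTX (atrophy, n = 3), after the same silencing and 9 days without TTX (recovery, n = 3), or after a further 5–6 days of TTX (repeated atrophy, n = 3). The 9 right limbs of these animals were the control. The remaining 3 animals had the surgery without TTX, 1 at each time point, and gave 3 sham left and 3 sham right limbs. The groups of left limbs held separate animals, and each control limb shared its animal with a silenced or recovered limb. The main fit treated the limbs as independent. Its p-values rest on 1 estimate of the spread within groups, shared by control and left limbs.

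An aminoacyl-tRNA synthetase joins an amino acid to its tRNA, the step that decides which amino acid a codon receives. Muscle fibres run this step in the cytosol, for proteins of nuclear genes, and again inside mitochondria, for the few respiratory chain subunits that mitochondrial DNA encodes. For most amino acids these compartments use enzymes from separate nuclear genes. Several cytosolic synthetases sit together in the multisynthetase complex, and many cytosolic synthetase genes are known targets of ATF4, the transcription factor of the amino acid response.

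Sequencing depth, inferred from the smallest step between values, ranged from 18.9 to 30.9 × 1000000 reads per library with a median of 26.1. The files hold counts per 1000000 reads (CPM), and each library was divided here by a median-of-ratios factor (0.781 to 1.28), which gives rescaled CPM. The 10 highest genes took 24.3 to 32.7% of CPM in control limbs, and 12.96, 25.6 and 15.6% in atrophy animals 1, 2 and 3, of which animal 2 stood apart. The summed level of 7 genes known to rise in silenced or denervated fibres was 126 to 591 rescaled CPM in control limbs and 161 to 892 in sham left limbs, against 863 to 3020.0 for atrophy, 259 to 1078 for recovery and 3969 to 4259 for repeated atrophy, so the lowest atrophy limb overlapped recovery and sham. The 6 skeletal muscle fibre genes looked at were above 0 in every group. In bulk tissue, fewer cells of a type and less RNA per cell cannot be told apart.

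Transcripts of the cytosolic enzymes were the more abundant. Per kilobase of the gene length in the files, the mean rescaled CPM in control limbs had a median of 29.2 over the 19 cytosolic members, with a range of 10.01 for Cars to 116 for Kars. Over the 13 mitochondrial members the median was 5.99, with a range of 2.26 for Pars2 to 19.2 for Tars2. On this scale Tars2 at 19.2 ± 4.91 (SD, n = 9) lay within the spread of its neighbours in the order, Tars1 at 21.1 ± 3.25 and Farsa at 18.7 ± 2.68. Tars2, Hars2 and Fars2 were the mitochondrial members above the lowest cytosolic one.

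After repeated atrophy the called members of the classes lay in opposite directions. Of the 19 cytosolic members, 8 rose against control and 0 fell, where 13.2% of all 14031 rows tested were called higher and 12.0% lower. Calls were made at 1.2-fold or more with an adjusted p no higher than 0.05. Folds and log2 changes are from log2(rescaled CPM + 1), so for low genes they understate the ratio of the levels printed beside them. Of the 13 mitochondrial members, 3 fell and 0 rose. The median log2 fold change was 0.29 for the cytosolic class, −0.31 for the mitochondrial class and −0.01 over all rows. With both limbs of an animal paired as a block, the class medians were 0.28 and −0.20, and 5 of 13 mitochondrial members were above 0, against 1 without the block. The sign of the mitochondrial median rests on the scaling: on CPM as deposited, where the median of all rows was itself 0.20, the class medians were 0.67 and 0.04, so the cytosolic class was again above and the mitochondrial class again below the median of all rows. On that scale 14 cytosolic members were called higher and 0 lower, beside 0 mitochondrial members higher and 2 lower, with 28.1% of all rows called higher and 6.24% lower.

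After the first atrophy the order of the classes was the same, with fewer calls. Farsb rose among the 19 cytosolic members, beside 4.57% of all rows called higher, and 2 of the 13 mitochondrial members (Aars2 and Tars2) fell, beside 5.17% called lower. The class medians were 0.17 and −0.50. Of the mitochondrial members, 12 of 13 had a change below 0. An unadjusted p below 0.05 in limma's fit was reached by 10 of the 13, among them Rars2, which was above 0, and by 3724 of all 14031 rows. On CPM as deposited, 12 cytosolic members and 1 mitochondrial member were called higher and 0 lower, with 20.3% of all rows called higher and 2.33% lower, and the medians were 0.54 and −0.14 against 0.22 over all rows.

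The calls in atrophy were lost with the pairing of limbs, while their direction was the same within each animal. With the 2 limbs of each animal as a block, 0 of the 32 members and 0 of all 14031 rows were called by limma in atrophy, although 2149 rows had an unadjusted p below 0.05. The blocked log2 fold changes of the called members were 0.26 for Farsb, −0.72 for Aars2 and −0.40 for Tars2. Farsb was higher in the left limb of 3 of 3 atrophy animals, and Aars2 and Tars2 were lower in the left limb of 3 of 3. The right limbs in question were part of the control, and the share of all rows with such agreement is not given here. The blocked medians were 0.00 for the cytosolic and −0.29 for the mitochondrial members. Without atrophy animal 1 or animal 3 no member was called, and without animal 2, 1 cytosolic member rose while 4 mitochondrial members fell and 1 rose. Without animal 2, 8.86% of all rows were called higher and 8.99% lower.

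**Figure D1:**
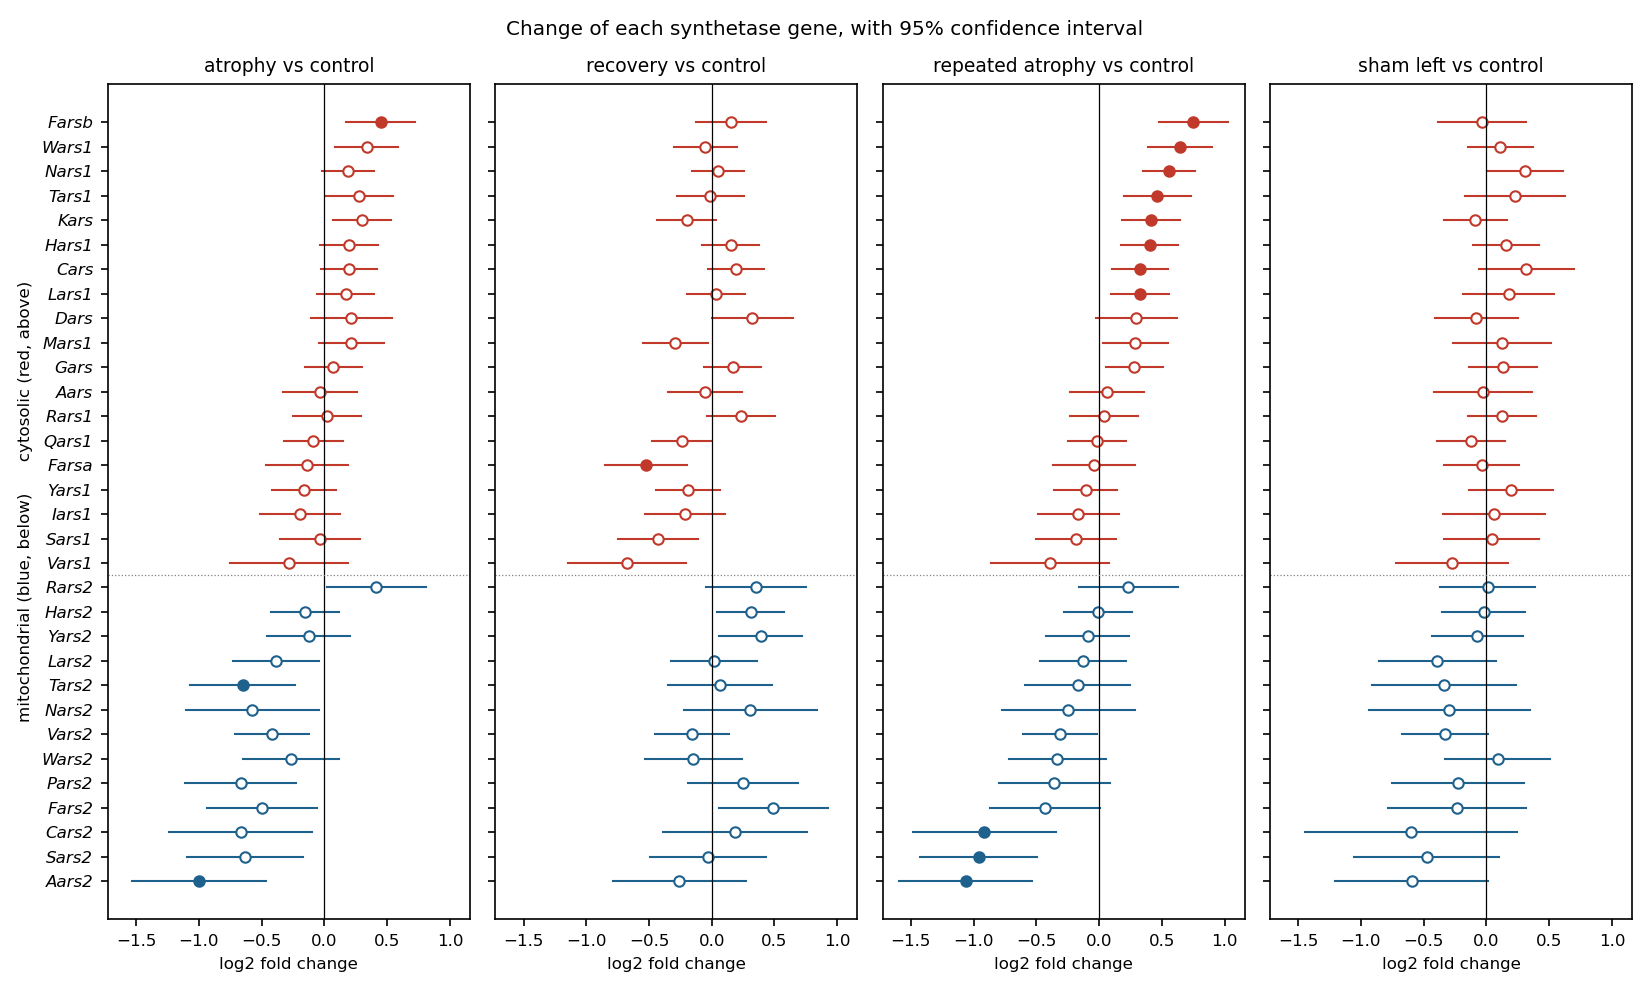
Log2 fold change (horizontal axis) of the 32 synthetase genes (vertical axis) in the left limbs of each group against the 9 control limbs, with the 95% confidence interval as a line and filled points for called changes. In repeated atrophy, 8 cytosolic points are filled to the right of 0 and 3 mitochondrial points to the left, and in sham left limbs no point is filled; on CPM as deposited the mitochondrial median in repeated atrophy was 0.04 instead of −0.31.

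The gap between the classes can be read within a limb, where the scaling of the library nearly cancels. The mean log2(rescaled CPM + 1) over the cytosolic members minus that over the mitochondrial members was 2.08 at lowest, 2.40 at the median and 2.91 at highest in the 9 control limbs. It was 2.88, 3.02 and 2.98 in atrophy animals 1, 2 and 3, and 3.16, 2.99 and 2.89 in repeated atrophy animals 1, 2 and 3. In recovery it was 2.16, 2.09 and 2.40. The silenced limbs thus lay near or above the upper end of the control limbs and the recovery limbs toward the lower end, with overlap. On CPM as deposited the control range of this gap was 2.06 to 2.91, with 2.91 to 3.03 in atrophy and 2.91 to 3.17 in repeated atrophy.

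The sham limbs, which had no TTX, spread at least as widely. In rising order the gap was 2.21, 2.71 and 3.40 in the sham left limbs and 2.36, 2.62 and 3.22 in the sham right limbs, so limbs on either side reached the level of the silenced limbs. Within animals the gap of the left limb minus that of the right was 0.09, −0.14 and 0.18 in the sham animals, 0.00, −0.01 and 0.32 in the recovery animals, 0.49, 0.28 and 0.07 in the atrophy animals and 0.59, 0.42 and 0.49 in the repeated atrophy animals. The 3 repeated atrophy animals were thus above the 3 sham animals in this difference, and above the 3 recovery animals, and the atrophy animals overlapped both.

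In sham left limbs against control no member was called, as was none of all 13822 rows (0.0%). In limma's fit, 1 cytosolic member (Nars1) and 0 mitochondrial members had an unadjusted p below 0.05 there, as had 1183 rows. The class medians in sham left limbs were 0.11 and −0.30, and 0.33 and −0.11 on CPM as deposited. Set against the right limbs of the same sham animals (the block), they were −0.01 and −0.07.

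**Figure D2:**
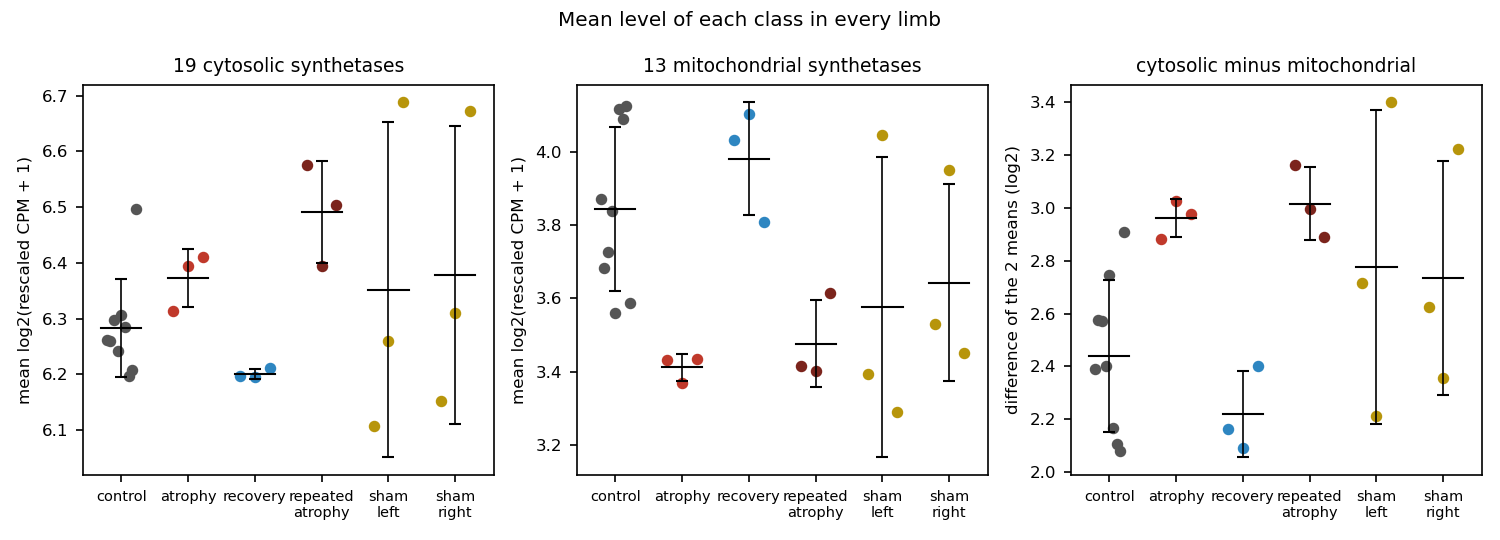
Mean log2(rescaled CPM + 1) over the 19 cytosolic members, over the 13 mitochondrial members, and the difference of these means, in every limb (points) of the 6 groups, with a line for each group. The difference is 2.88 to 3.02 in atrophy, 2.89 to 3.16 in repeated atrophy and 2.09 to 2.40 in recovery, and the control and sham limbs together span all of this range.

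The cytosolic members that rose after repeated atrophy were led by Farsb, Wars1 and Nars1. Farsb (chr9:79887855-79947038, minus strand, rn7) codes for the beta subunit of phenylalanyl-tRNA synthetase. In this and the following genes, control limbs are given by their lowest, median and highest rescaled CPM and the other groups by animals 1, 2 and 3. Farsb was 43.4, 50.7 and 66.2 in control, 76.7, 63.9 and 73.3 in atrophy, 56.2, 57.1 and 59.97 in recovery and 77.8, 101 and 86.7 in repeated atrophy. All repeated atrophy limbs lay above all control limbs. The change was 1.68-fold (log2 0.75 ± 0.13 SE, adjusted p = 0.000546), after 1.36-fold in the first atrophy (log2 0.45 ± 0.13 SE, adjusted p = 0.0392, and 0.434 with the block).

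Wars1 (chr6:127776088-127807274, minus strand), the tryptophanyl enzyme, is also known as an interferon-induced gene. It was 35.4, 47.5 and 50.96 in control, 62.5, 52.00 and 61.6 in atrophy, 46.8, 43.1 and 43.5 in recovery and 64.2, 67.8 and 87.8 in repeated atrophy. Both silenced groups were above every control limb. The test was passed in repeated atrophy, at 1.56-fold (log2 0.64 ± 0.12 SE, adjusted p = 0.000893), while atrophy gave log2 0.34 ± 0.12 with an adjusted p of 0.0832.

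Nars1 (chr18:57989309-58005589, minus strand) charges asparagine tRNA. It was 82.7, 86.1 and 99.1 in control, 118, 99.7 and 84.7 in atrophy, 92.6, 89.9 and 89.3 in recovery and 141, 121 and 127 in repeated atrophy, where all limbs lay above all controls. The rise in repeated atrophy was 1.47-fold (log2 0.56 ± 0.10 SE, adjusted p = 0.000560). Both limbs of sham animal 3 were as high, with 146 on the left and 145 on the right.

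Tars1 (chr2:60368896-60387658, minus strand) is the threonyl enzyme. It was 42.4, 49.7 and 64.3 in control, 57.7, 65.02 and 63.5 in atrophy, 50.3, 46.9 and 54.6 in recovery and 75.8, 73.5 and 63.2 in repeated atrophy, where animal 3 overlapped the controls. It rose 1.38-fold there (log2 0.46 ± 0.13 SE, adjusted p = 0.0121).

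Kars (chr19:39957846-39976806, minus strand), whose splice forms serve cytosol and mitochondria, was the most abundant member per kilobase. It was 212, 252 and 289 in control, 302, 279 and 339 in atrophy, 197, 219.6 and 232 in recovery and 336, 313 and 343 in repeated atrophy, above every control limb (1.33-fold, log2 0.41 ± 0.11 SE, adjusted p = 0.0106). Gars (chr4:84171596-84212610, plus strand), the other gene for both compartments, did not pass the test. It was 71.7, 82.04 and 94.1 in control and 115, 92.9 and 95.2 in repeated atrophy (log2 0.28, 95% confidence interval 0.05 to 0.51, adjusted p = 0.0660).

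Hars1, Cars and Lars1 completed the 8. Hars1 (histidine) rose 1.32-fold in repeated atrophy (log2 0.40 ± 0.11 SE, adjusted p = 0.0115), Cars (cysteine) 1.25-fold (log2 0.33 ± 0.11 SE, adjusted p = 0.0314) and Lars1 (leucine) 1.25-fold (log2 0.33 ± 0.11 SE, adjusted p = 0.0363). Cars was 25.3, 30.3 and 32.4 in control and 38.8, 34.4 and 39.3 in repeated atrophy, with no overlap, and Lars1 was 91.9, 107 and 138 and 132, 139.9 and 142, with overlap. Sham animal 3, which had no TTX, was above every repeated atrophy limb on both sides for Cars (56.2 on the left and 62.5 on the right), Lars1 (179 and 167) and Tars1 (88.4 and 82.00). For Hars1 it was at 55.7 and 53.3, within the range of the repeated atrophy limbs. For Farsb, Wars1 and Kars all 6 sham limbs were below every repeated atrophy limb. With the block, Cars and Lars1 no longer passed (blocked log2 0.38 and 0.35, adjusted p = 0.105 and 0.0711), which left 6 cytosolic members higher, beside 10.8% of all rows. Each of the 8 was higher in the left than in the right limb of 3 of 3 repeated atrophy animals, as were 12 of the 19 cytosolic members in all. The share of all rows with such agreement is not given here. For the 8 it adds little to the calls, because the control group held these same right limbs. Leaving out repeated atrophy animal 1, 2 or 3 reduced the 8 to 5 each time, and Farsb, Wars1 and Nars1 were called in each of the 9 fits that left out 1 animal.

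The other 11 cytosolic members were not called in repeated atrophy. Dars, Mars1, Aars and Rars1 had log2 fold changes of 0.30, 0.29, 0.06 and 0.04. Qars1, Farsa, Yars1, Iars1, Sars1 and Vars1 had −0.02, −0.04, −0.11, −0.17, −0.19 and −0.39; on CPM as deposited those 6 were 0.37, 0.33, 0.27, 0.21, 0.20 and −0.01. Among the 7 members that belong to the multisynthetase complex (Dars, Iars1, Kars, Lars1, Mars1, Qars1 and Rars1), 2 were called higher, and among the 12 others 6 were, with median log2 fold changes of 0.29 and 0.30.

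**Figure D3:**
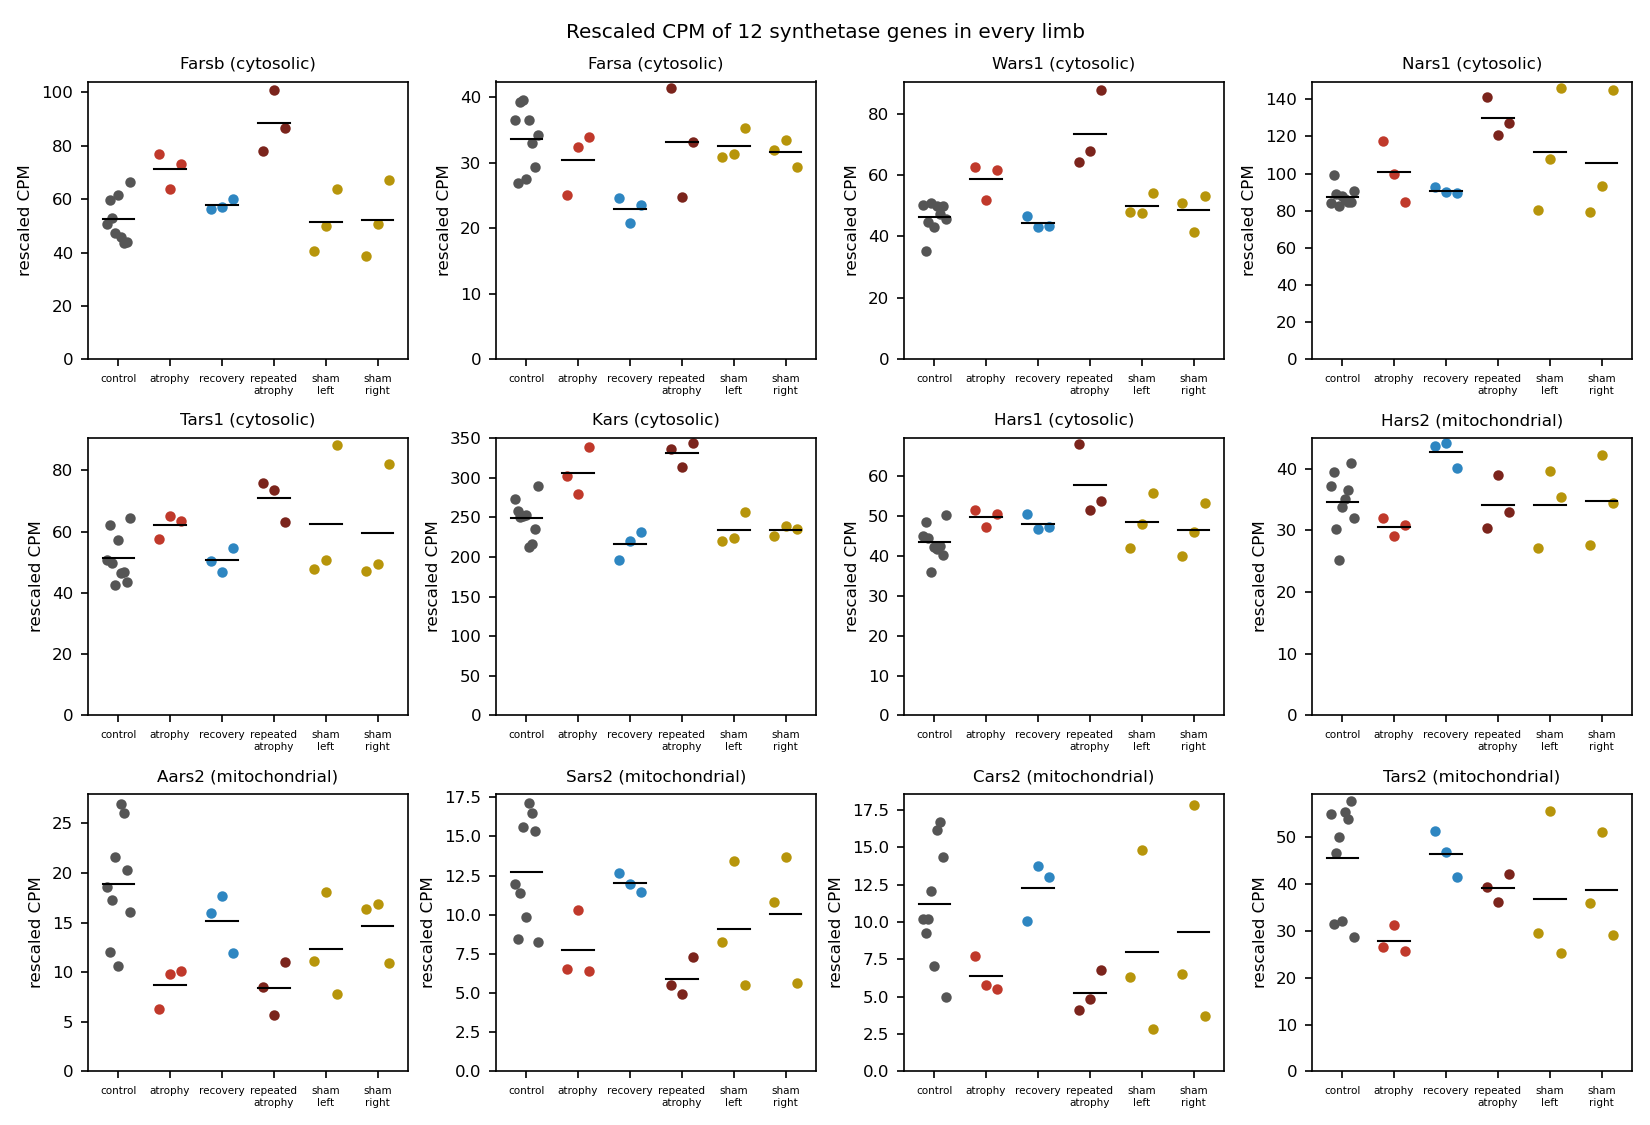
Rescaled CPM (vertical axis, from 0) of 12 synthetase genes in every limb (points) of the 6 groups, with the group mean as a line. In repeated atrophy Farsb, Wars1, Nars1, Kars and Hars1 lie above all 9 control limbs and Sars2 lies below them, and in atrophy Aars2, at 6.26 to 10.1, lies below the lowest control limb.

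The subunits of the cytosolic phenylalanyl enzyme, which pairs alpha and beta chains, did not move together. Farsa (chr19:23291409-23300935, minus strand) codes for the alpha chain. It was 26.8, 34.1 and 39.5 in control, 25.05, 32.4 and 33.96 in atrophy, 24.5, 20.7 and 23.5 in recovery and 41.3, 24.8 and 33.1 in repeated atrophy. Farsa was the cytosolic member that fell in recovery, to 0.696 of control (log2 −0.52 ± 0.15 SE, adjusted p = 0.0351, and log2 −0.50 with adjusted p = 0.225 with the block), with all 3 limbs below all controls, beside 5.87% of all rows called lower. Farsa did not pass in recovery on CPM as deposited (log2 −0.51). The log2 ratio of Farsb to Farsa spanned 0.26 to 1.13 among control limbs, 0.96 to 1.58 after atrophy, 1.16 to 1.42 after recovery and 0.90 to 1.98 after repeated atrophy.

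Promoter sequences are shown for the members that rose in repeated atrophy and carry the core letters of the C/EBP-ATF response element, through which ATF4 is known to act, so that the element can be read in place. The letters TGATGNAA were searched on both strands of RefSeq promoters (build GRCr8, 250 bases before to 50 after the start of a gene). They were found in 3.98% of the 33469 promoters given, in 7 of the 16 cytosolic members matched (43.8%) and in 0 of the 13 mitochondrial members matched. Dars, Gars and Rars1 were not matched. The 7 were Aars, Cars, Iars1, Mars1, Nars1, Tars1 and Yars1, of which Cars, Nars1 and Tars1 rose in repeated atrophy, beside 13.2% of all rows called higher. They are printed 5′ to 3′ on the strand of the gene with the match in capitals (TTGCATCA is TGATGCAA read on the other strand). A match is a description of letters. The other members that rose, Farsb, Wars1, Kars, Hars1 and Lars1, had none in this window, and Farsb and Wars1 rose most.
Nars1, chr18:60275733-60276032, minus strand: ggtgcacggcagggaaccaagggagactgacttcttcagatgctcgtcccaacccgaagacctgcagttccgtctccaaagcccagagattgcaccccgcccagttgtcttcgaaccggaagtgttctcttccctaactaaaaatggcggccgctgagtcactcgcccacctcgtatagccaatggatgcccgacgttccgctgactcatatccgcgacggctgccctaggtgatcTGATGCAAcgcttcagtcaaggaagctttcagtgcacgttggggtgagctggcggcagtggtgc
Tars1, chr2:62114753-62115052, minus strand: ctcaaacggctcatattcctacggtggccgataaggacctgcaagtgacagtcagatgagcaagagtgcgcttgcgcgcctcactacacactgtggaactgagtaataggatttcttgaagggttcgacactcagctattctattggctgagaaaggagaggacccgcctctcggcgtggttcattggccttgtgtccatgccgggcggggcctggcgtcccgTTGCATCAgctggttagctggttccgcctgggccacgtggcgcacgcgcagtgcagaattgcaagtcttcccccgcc
Cars, chr1:208225320-208225619, minus strand: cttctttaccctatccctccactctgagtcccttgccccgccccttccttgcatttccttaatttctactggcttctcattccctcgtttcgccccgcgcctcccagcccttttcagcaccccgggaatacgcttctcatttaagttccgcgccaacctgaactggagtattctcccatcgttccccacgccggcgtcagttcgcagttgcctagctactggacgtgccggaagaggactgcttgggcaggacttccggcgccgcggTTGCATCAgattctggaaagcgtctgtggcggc

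Hars1 and Hars2, the cytosolic and mitochondrial histidyl enzymes, are head-to-head neighbours with 142 bases between them in rn7 (Hars1 chr18:28381649-28398700, minus strand; Hars2 chr18:28398843-28408076, plus strand). Their promoter windows in GRCr8 share 243 of 300 bases, read from opposite strands, and are printed because the same stretch stands before both genes. Neither holds the letters searched above.
Hars1, chr18:28672663-28672962, minus strand: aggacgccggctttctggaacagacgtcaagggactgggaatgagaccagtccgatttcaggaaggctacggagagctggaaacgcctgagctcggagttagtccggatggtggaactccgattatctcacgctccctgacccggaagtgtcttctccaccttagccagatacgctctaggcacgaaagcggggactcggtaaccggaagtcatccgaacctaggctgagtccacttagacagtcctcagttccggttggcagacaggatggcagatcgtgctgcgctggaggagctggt
Hars2, chr18:28672606-28672905, plus strand: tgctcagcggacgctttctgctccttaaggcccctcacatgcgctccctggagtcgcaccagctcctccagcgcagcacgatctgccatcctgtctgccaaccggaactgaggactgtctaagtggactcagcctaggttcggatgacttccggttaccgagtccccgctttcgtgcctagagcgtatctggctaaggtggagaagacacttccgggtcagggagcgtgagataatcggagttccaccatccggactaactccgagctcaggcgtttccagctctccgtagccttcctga

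Hars1 was 35.9, 42.4 and 50.2 in control, 51.5, 47.1 and 50.4 in atrophy, 50.5, 46.6 and 47.2 in recovery and 68.1, 51.6 and 53.9 in repeated atrophy, where all limbs lay above all controls. Hars2 was 25.3, 35.1 and 40.9 in control, 31.9, 29.1 and 30.8 in atrophy, 43.7, 44.1 and 40.2 in recovery and 30.4, 38.99 and 32.99 in repeated atrophy. Hars2 was not called against control, with log2 fold changes of −0.16, 0.31 and −0.01 in atrophy, recovery and repeated atrophy. The log2 ratio of Hars1 to Hars2 was −0.03 to 0.63 among control limbs, 0.67 to 0.69 after atrophy, 0.08 to 0.23 after recovery and 0.39 to 1.14 after repeated atrophy.

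The mitochondrial members that fell after repeated atrophy were Aars2, Sars2 and Cars2. Aars2 (chr9:15485043-15496102, minus strand) is the mitochondrial alanyl enzyme, in which inherited mutations cause infantile cardiomyopathy. It was 10.7, 18.6 and 26.96 in control, 6.26, 9.81 and 10.1 in atrophy, 15.98, 17.7 and 11.9 in recovery and 8.47, 5.73 and 11.03 in repeated atrophy. The atrophy limbs lay below every control limb, and animal 3 of repeated atrophy overlapped the controls. In sham animals 1, 2 and 3 Aars2 was 11.1, 18.1 and 7.78 on the left and 16.4, 16.8 and 10.9 on the right, and the left limb of animal 3 was within the range of both silenced groups. Aars2 fell to 0.500 of control in atrophy (log2 −1.0 ± 0.25 SE, adjusted p = 0.0236, and 0.233 with the block) and to 0.479 in repeated atrophy (log2 −1.06 ± 0.25 SE, adjusted p = 0.00501). On CPM as deposited the fall in atrophy did not pass (log2 −0.65, adjusted p = 0.0525).

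Sars2 (chr1:84028986-84040726, plus strand) charges the mitochondrial serine tRNAs. It was 8.28, 11.98 and 17.1 in control, 6.55, 10.3 and 6.42 in atrophy, 12.6, 11.99 and 11.5 in recovery and 5.54, 4.91 and 7.29 in repeated atrophy. All repeated atrophy limbs lay below all controls (0.514 of control, log2 −0.96 ± 0.22 SE, adjusted p = 0.00393).

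Cars2 (chr16:77950008-77987159, plus strand) is the mitochondrial cysteinyl enzyme. It was 4.97, 10.2 and 16.7 in control, 7.75, 5.80 and 5.56 in atrophy, 10.1, 13.8 and 13.01 in recovery and 4.11, 4.86 and 6.80 in repeated atrophy, where animal 3 overlapped the controls (0.531 of control, log2 −0.91 ± 0.27 SE, adjusted p = 0.0192). Cars2 did not pass on CPM as deposited (log2 −0.57, adjusted p = 0.0975).

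These 3 falls in repeated atrophy were also called with the block (adjusted p = 0.0265, 0.0148 and 0.00987 for Aars2, Sars2 and Cars2), beside 10.2% of all rows called lower. Each gene was lower in the left limb of 3 of 3 animals, whose right limbs were part of the control. Without repeated atrophy animal 2 the 3 became 1, Sars2. The same genes had the lowest values of all members in sham left limbs against control, uncalled: log2 −0.60 for Cars2, −0.59 for Aars2 and −0.48 for Sars2 (adjusted p = 0.649, 0.589 and 0.625). In sham animals 1, 2 and 3, Sars2 was 8.29, 13.5 and 5.51 on the left and 10.8, 13.7 and 5.62 on the right, and Cars2 was 6.36, 14.9 and 2.83 and 6.53, 17.9 and 3.70. Animal 3 was the low one on both sides.

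Tars2 (chr2:183293118-183310167, minus strand), the mitochondrial threonyl enzyme, was 28.7, 50.02 and 57.7 in control, 26.7, 31.3 and 25.7 in atrophy, 51.3, 46.8 and 41.5 in recovery and 39.4, 36.1 and 42.2 in repeated atrophy. In the sham animals it was 29.6, 55.7 and 25.3 on the left and 35.98, 51.1 and 29.1 on the right, so sham animals 1 and 3 had left limbs as low as the atrophy limbs. It fell in atrophy (0.637 of control, log2 −0.65 ± 0.20 SE, adjusted p = 0.0461, and 0.376 with the block) and was at log2 −0.17 (adjusted p = 0.583) in repeated atrophy; on CPM as deposited these were −0.28 and 0.21, and neither passed. The difference between the silenced groups was not called for Tars2 or for any other member, as for none of all 14031 rows (0.0%). In limma's fit of repeated atrophy against atrophy, 1 cytosolic member (Nars1) and 0 mitochondrial members had an unadjusted p below 0.05, as had 907 rows.

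The remaining mitochondrial members were not called after either silencing. In repeated atrophy Fars2, Pars2, Wars2, Vars2, Nars2, Lars2 and Yars2 had log2 fold changes of −0.43, −0.36, −0.33, −0.31, −0.25, −0.13 and −0.09; on CPM as deposited all 7 lay between −0.07 and 0.25. Rars2 was above control, at 0.23. In atrophy Rars2 was the one member of the class above 0 (log2 0.41, adjusted p = 0.168), with limbs at 12.36, 5.54 and 7.15 against 4.85, 5.59 and 7.49 in control. On CPM as deposited Rars2 was called higher in atrophy (log2 0.75, adjusted p = 0.0259).

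In recovery 0 of the 13 mitochondrial members were called higher and 0 lower, beside 6.24% of all rows called higher, and 3 had an unadjusted p below 0.05 in limma's fit, as had 3998 of all 14031 rows. The class median in recovery was 0.19 for the mitochondrial members, with 9 of 13 above 0, and −0.05 for the cytosolic ones, with 8 of 19 above 0. Beside Farsa, the lowest cytosolic values were those of Vars1 (log2 −0.67, adjusted p = 0.0563) and Sars1 (−0.43, 0.0699).

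The right limbs of the recovery animals were themselves high. Their mean log2(rescaled CPM + 1) over the mitochondrial members was 4.09 to 4.13, against 3.56 to 3.87 in the right limbs of the atrophy animals and 3.68 to 3.84 in those of the repeated atrophy animals. Their own left limbs, the recovery limbs, were at 4.03, 4.10 and 3.81. Within animals the mitochondrial mean of the left limb minus that of the right was −0.08, 0.01 and −0.32 in recovery, −0.44, −0.19 and −0.15 in atrophy and −0.27, −0.33 and −0.23 in repeated atrophy. The left limb was thus the lower in all 6 silenced animals and in 2 of the 3 recovery animals. It was also the lower in 2 of the 3 sham animals, with differences of −0.14, 0.09 and −0.16 in sham animals 1, 2 and 3, so the atrophy animals overlapped the sham animals and the repeated atrophy animals did not. With the animal as a block the mitochondrial median in recovery changed sign, to −0.24, and Farsa was not called. Time point and animal cannot be told apart in the right limbs.

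Between time points the called members of the classes moved in opposite directions. In recovery against atrophy, Fars2 (1.98-fold, log2 0.99 ± 0.25 SE, adjusted p = 0.0232) and Pars2 (1.89-fold, log2 0.91 ± 0.26 SE, adjusted p = 0.0326) rose, beside 5.77% of all rows higher. Kars (log2 −0.50 ± 0.14 SE, adjusted p = 0.0280) and Mars1 (log2 −0.50 ± 0.15 SE, adjusted p = 0.0423) fell, beside 4.85% lower. Of the 13 mitochondrial members 12 were above 0 in this comparison (median 0.60), and 9 with the block (median 0.09). On CPM as deposited 0 cytosolic members were called higher and 8 lower, and 1 mitochondrial member (Fars2) higher, beside 3.34% of all rows higher and 14.5% lower, with a median of −0.19 over all rows.

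In repeated atrophy against recovery, 6 cytosolic members rose, with log2 fold changes of 0.70 for Wars1, 0.62 for Kars, 0.60 for Farsb, 0.58 for Mars1, 0.51 for Nars1 and 0.48 for Tars1, beside 10.3% of all rows higher. Cars2 (−1.10), Sars2 (−0.93) and Fars2 (−0.92) fell, beside 11.3% lower, and all 13 mitochondrial members were below 0; on CPM as deposited 7 of 13 were. On that scale 12 cytosolic members were called higher and 1 mitochondrial member lower, beside 2941 of all 14031 rows higher and 882 lower. These groups hold different animals. When each was set against its own right limbs none of the 4 and none of the 9 calls stood, with blocked adjusted p-values of 0.697 to 0.808 and 0.0800 to 0.526. With this block 2 of all 14031 rows were called lower (0.0143%) and 0 higher in recovery against atrophy, and 2 higher (0.0143%) and 5 lower (0.0356%) in repeated atrophy against recovery. The blocked log2 fold changes kept their signs. In repeated atrophy against recovery they were 0.88 for Wars1, 0.43 for Nars1, 0.32 to 0.42 for the other 4 cytosolic members and −0.55 to −0.41 for the 3 mitochondrial ones. In recovery against atrophy they were −0.21 for Kars, −0.26 for Mars1, 0.43 for Fars2 and 0.28 for Pars2.

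Fars2 and Mars1 are given as examples of these differences between groups of different animals. Fars2 (chr17:28319280-28746097, minus strand), the mitochondrial phenylalanyl enzyme, was 13.2, 18.5 and 25.3 in control, 10.9, 15.04 and 13.6 in atrophy, 30.4, 32.1 and 19.9 in recovery and 17.1, 10.5 and 14.4 in repeated atrophy. The recovery limbs overlapped neither silenced group. The right limbs of recovery animals 1, 2 and 3 were at 23.5, 24.6 and 25.3, the highest of the control limbs, and animal 3 was lower on the left. For Pars2 the recovery limbs were at 8.44, 9.91 and 8.06. Their own right limbs were higher, at 8.63, 9.97 and 11.03. Mars1 (chr7:63121142-63138440, minus strand), the cytosolic methionyl enzyme, had the opposite order, with 86.6, 91.2 and 103 in atrophy, 63.01, 64.7 and 69.6 in recovery and 103, 95.8 and 97.4 in repeated atrophy, against 67.9, 83.1 and 108 in control. For Mars1 the right limbs of recovery animals 1, 2 and 3 were at 79.2, 68.9 and 67.9.

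For 11 amino acids the rule gave 1 cytosolic and 1 mitochondrial gene described here, and the changes can be set side by side. The threonine pair is Tars1 and Tars2. It leaves out Tars3, a second cytosolic threonyl gene outside the rule, which fell in repeated atrophy and is given below. The cytosolic change was above the mitochondrial change in 9 of 11 pairs in atrophy, 4 in recovery and 8 in repeated atrophy, with median differences of 0.60, −0.12 and 0.63 on the log2 scale. These comparisons share the control limbs. In sham left limbs the count was 11 of 11, with a median difference of 0.52. These sham values are against the right limbs of other animals. None of these counts pairs the limbs of an animal, and the count in recovery rests on the pooled control. With the block the class medians in recovery were −0.03 for the cytosolic and −0.24 for the mitochondrial members, against −0.05 and 0.19 without it. The difference in repeated atrophy was greatest for cysteine (0.33 for Cars, −0.91 for Cars2), alanine (0.06 for Aars, −1.06 for Aars2) and tryptophan (0.64 for Wars1, −0.33 for Wars2).

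In single limbs the pairs for alanine and tryptophan left the control range in both silenced groups. The log2 ratio of Aars to Aars2 was 2.31 to 3.08 in control, 3.26 to 3.95 in atrophy and 3.39 to 3.98 in repeated atrophy. That of Wars1 to Wars2 was 1.64 to 2.79 in control, 2.83 to 3.04 in atrophy and 2.98 to 3.51 in repeated atrophy. In sham left limbs these ratios were 2.72 to 4.15 and 2.19 to 2.54. For arginine, valine and tyrosine the mitochondrial change was the higher in repeated atrophy, with cytosolic minus mitochondrial differences of −0.19, −0.07 and −0.02.

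**Figure D4:**
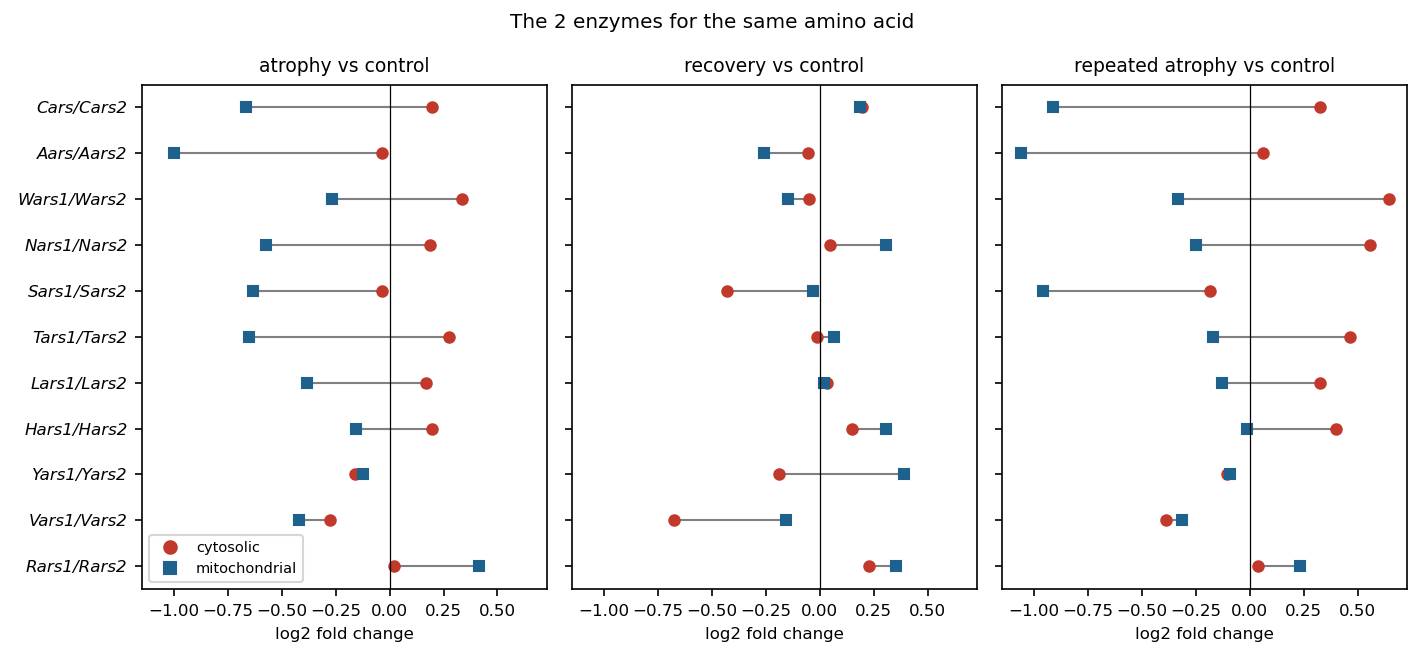
Log2 fold change against control (horizontal axis) of the cytosolic (circles) and mitochondrial (squares) gene for 11 amino acids (vertical axis) in atrophy, recovery and repeated atrophy, ordered by the difference in repeated atrophy. Circles lie to the right of squares in 9, 4 and 8 of the 11 pairs, against the pooled control and without pairing of limbs. With the block the class medians in recovery were −0.03 (cytosolic) and −0.24 (mitochondrial). The circle for threonine is Tars1 and leaves out Tars3. On CPM as deposited the points shift to the right in both silenced groups, and the mitochondrial median in repeated atrophy becomes 0.04.

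The synthetase genes outside the rule held changes of both signs. Eprs, the bifunctional glutamyl-prolyl enzyme of the complex, was 129.8, 147 and 173 in control (lowest, median and highest), and in rising order 153, 193 and 213 in atrophy, 144, 146 and 167 in recovery and 219.8, 244 and 258 in repeated atrophy. It rose in repeated atrophy (log2 0.69 ± 0.11 SE, adjusted p = 0.000356). Tars3, a second cytosolic threonyl enzyme, was 54.1, 55.2 and 70.5 in control, 27.95, 34.5 and 52.6 in atrophy, 46.6, 49.9 and 54.7 in recovery and 24.1, 29.4 and 36.1 in repeated atrophy. It fell in repeated atrophy (log2 −0.94 ± 0.15 SE, adjusted p = 0.000304) and in atrophy (log2 −0.62 ± 0.15 SE, adjusted p = 0.0214, and 0.222 with the block). Ears2, the mitochondrial glutamyl enzyme, was not called in repeated atrophy (log2 0.33, adjusted p = 0.361).

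Other steps of tRNA charging and translation were taken from listed genes. Of the 3 scaffolds of the multisynthetase complex, Eef1e1 rose in repeated atrophy (log2 0.60 ± 0.19 SE, adjusted p = 0.0250) and Aimp2 fell (log2 −0.62 ± 0.19 SE, adjusted p = 0.0229, and 0.163 with the block), while Aimp1 was at log2 0.37 (adjusted p = 0.113). Of the 9 cytosolic elongation and release factors, 4 rose and 0 fell in repeated atrophy, beside 13.2% and 12.0% of all rows. Eef1a1, the factor that carries charged tRNA to the ribosome, was 496 to 929.6 in control and 3131 to 4758 in repeated atrophy (log2 2.40 ± 0.32 SE, adjusted p = 7.40e-05), and the others were Eef1b2 (log2 0.99), Eif5a (0.49) and Gspt1 (0.49). In atrophy 3 of the 9 rose, beside 4.57% of all rows, and in recovery 1 fell, beside 5.87%.

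The mitochondrial side of these steps was mixed. Of 9 mitochondrial translation factors, Guf1 (log2 −0.94 ± 0.25 SE, adjusted p = 0.00991) and Tufm (log2 −0.69 ± 0.21 SE, adjusted p = 0.0212, and 0.115 with the block), the mitochondrial counterpart of Eef1a1, fell in repeated atrophy and 0 rose, beside 12.0% of all rows lower and 13.2% higher. Qrsl1, a subunit of the enzyme that makes mitochondrial glutaminyl-tRNA, fell in repeated atrophy (log2 −1.06 ± 0.25 SE, adjusted p = 0.00418) and in atrophy (log2 −1.10 ± 0.25 SE, adjusted p = 0.0155, and 0.249 with the block). Mtfmt, which formylates the mitochondrial initiator tRNA, rose in repeated atrophy (log2 0.92 ± 0.19 SE, adjusted p = 0.00149). Of 14 mitochondrial tRNA processing and modification genes, 3 were called higher in repeated atrophy (among them Trit1 at log2 0.84 and Yrdc at 0.53, the latter at adjusted p = 0.0830 with the block) and 2 lower (−0.76 for Gtpbp3 and −0.55 for Hsd17b10), counts that stand beside the same shares of all rows. Trit1 and Yrdc also serve cytosolic tRNAs. Of the 4 aminoacyl-tRNA editing genes none was called in repeated atrophy, and Aarsd1 fell in recovery (log2 −0.46 ± 0.11 SE, adjusted p = 0.0152, and 0.0869 with the block).

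Atf4, the gene of the transcription factor named above, was low in repeated atrophy and also in recovery. It was 327, 447 and 703 in control (lowest, median and highest), and in rising order 142, 221 and 384 in atrophy, 221, 247 and 254 in recovery and 94.8, 109.7 and 266 in repeated atrophy (log2 −1.65 ± 0.31 SE, adjusted p = 0.000898). All recovery limbs and the atrophy limbs at 142 and 221 lay below every control limb as well. These are transcript levels, and ATF4 protein was not measured here. Of 28 listed ATF4 genes other than synthetases, with Atf4 among them, 3 rose and 6 fell in repeated atrophy, beside 13.2% and 12.0% of all rows, so the share that rose was no greater than that of all rows. The median log2 fold change of the list was −0.16. Asns, asparagine synthetase, rose most (log2 2.94 ± 0.50 SE, adjusted p = 0.000422), from 0.209 to 3.54 in control to 13.6 to 20.04. Ddit4 (log2 −1.42), Stc2 (−1.17) and Atf5 (−1.04) were among those that fell. In atrophy 2 of the 28 rose and 2 fell, and in recovery 2 rose and 4 fell, beside 4.57 and 5.17% of all rows in atrophy and 6.24 and 5.87% in recovery.

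Markers of other cell types moved with some of these groups. In recovery, 5 of 5 fibroblast markers were called higher, with a summed level of 1212 to 1915 rescaled CPM against 189 to 603 in control, and so were 5 of 6 macrophage markers, at 75.1 to 125 against 24.3 to 87.5. In repeated atrophy 0 of 5 and 0 of 6 were called, at 307 to 409 and 20.6 to 56.6. The summed level of the 6 muscle fibre genes was 111621 to 222028 among control limbs, 46823 to 122665 after atrophy, 131819 to 155897 after recovery and 70657 to 105293 after repeated atrophy. Of the 4 endothelial markers 2 were lower in repeated atrophy, at a sum of 105 to 138 against 159 to 209, beside 12.0% of all rows. The summed level of the 3 satellite cell markers was 13.7 to 75.7 in atrophy and 36.9 to 56.2 in repeated atrophy against 10.1 to 22.1 in control. Of these, Myf5, named after its values were seen, was called higher in both (log2 2.30 and 2.71), while Pax7 was at −0.34 and 0.03 and Cd34 at −0.67 and −0.73. None of the 4 Schwann cell, 3 adipocyte and 3 blood cell markers was called in atrophy, recovery or repeated atrophy. No listed marker was at 0 in any group. Their part in the synthetase changes was not tested.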

How the data were processed

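Polyadenylated RNA of 24 TA samples was sequenced by the authors as 59 bp paired ends. Reads were cleared of contaminants with Bowtie2 2.2.5 and aligned to rn7 with STAR in Partek Flow, and the counting step, its strand setting and the annotation are not given in the sources used here. The deposited values are CPM (each column sums to 1000000) and not the median-of-ratios values the methods name; 88.1 to 90.3% of low values were whole multiples of 1 read (tolerance 0.01), so reads were not recovered and no count test was run. Of 14271 rows, 28 duplicates were dropped, which left 14243 rows and 13458 symbols; 3 value columns matched no sample label and were not used.

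CPM were divided by median-of-ratios factors over the 11397 rows above 0 in all samples, in place of CPM as deposited, because on the latter the median of all rows shifted by 0.22 (log2) in atrophy, 0.20 in repeated atrophy and 0.17 in sham left limbs. Rows above 0 in at least 3 samples were tested on log2(value + 1), a scale that understates the change of low genes, with limma 3.58.1 (trend) in R 4.3.3: 1 fit of control, atrophy, recovery and repeated atrophy (18 limbs) and 1 of sham left against control (12 limbs), with Benjamini-Hochberg adjustment over all rows. The main fit was also run on simulated data in which limbs were drawn independently and no rescaling was applied. That run therefore cannot speak to the pairing of limbs or to the scaling. Summaries and plots used Python 3.11.15, numpy 2.4.6, pandas 2.3.3 and matplotlib 3.10.9.

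Both limbs of an animal are identified by the labels, so the replicate block pairs limbs of the same animal; the left and right deviations correlated at r = −0.33 to 0.54 (mean 0.12) in the 9 TTX animals and 0.61 to 0.84 in the 3 sham animals. Alternatives were CPM as deposited, trimmed mean of M values factors, pseudocount 0.1, no filter, a mean of at least 1, summed rows, no trend, 12 right limbs as control, only the groups compared, the block, and leaving out each animal. The members, gene lists and tests were chosen with earlier results of these data known, and 1 further gene that the rule matched is not reported here. Values in every limb were given by rule for up to 5 of the largest called members of each class, Gars, Kars, Hars1 and Hars2, and of each list up to 4 called genes and Atf4 were named; Farsa, Cars, Lars1, Fars2, Mars1 and Rars2 were added after their values were seen. Gene models that share reads could not be separated.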

Additional observations from a re-analysis of the deposited data

Results flagged for a closer look

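In the control group, 3 members had a highest limb that stood far from the other 8: Mars1 at 108, Nars1 at 99.1 and Sars1 at 221 rescaled CPM. All 32 members were looked at in this way in the control group, and chance flags about 1 in 20 groups. The other members listed here differed between time points in limma's fit. In recovery against atrophy these were Kars (log2 −0.50), Mars1 (−0.50), Fars2 (0.99) and Pars2 (0.91). In repeated atrophy against recovery they were Farsb (log2 0.60), Kars (0.62), Mars1 (0.58), Nars1 (0.51), Tars1 (0.48), Wars1 (0.70), Cars2 (−1.10), Fars2 (−0.92) and Sars2 (−0.93). None of these 13 was called with the animal as a block, where 2 of all 14031 rows were called in the former comparison and 7 in the latter, and the blocked changes had the same signs, at 0.88 for Wars1 and 0.43 for Nars1 in the latter.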

How the results depend on the processing

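No called value changed sign in any alternative: of 532 checks of the 28 called values, 415 also passed the test and 117 did not. Of 3500 checks of uncalled values, 185 changed sign and 52 passed. Farsb, Wars1, Nars1 and Sars2 in repeated atrophy against control passed in all 19 alternatives. The number of called members depended on the scaling. On CPM as deposited it was 12 cytosolic in atrophy, 0 in recovery and 14 in repeated atrophy, 1 mitochondrial in atrophy, and 9 of both classes in recovery against atrophy. Of all 14031 rows, 3171, 1084, 4812 and 2505 were called in these comparisons, in the same order. In the main fit the counts over all rows were 1367, 1699, 3543 and 1490. With the replicate block it was 0 cytosolic and 0 mitochondrial in atrophy, 0 and 0 in recovery, 0 in recovery against atrophy and 0 in repeated atrophy against recovery. Over all 14031 rows the block called 0, 63, 2 and 7 in these comparisons. With only the groups compared in the fit it was 0 cytosolic and 1 mitochondrial in atrophy, 3 and 0 in recovery, and 2 in recovery against atrophy. With 12 right limbs as control it was 1 mitochondrial in atrophy, 2 cytosolic in recovery and 2 in recovery against atrophy. With a mean of at least 1 it was 4 mitochondrial in atrophy and 2 cytosolic in recovery, without trend 4 and with no filter 1 mitochondrial in atrophy. Where no count over all rows is given for an alternative, its counts describe the fit and are no result about the members. Leaving out 1 animal at a time gave 0 to 1 cytosolic calls for atrophy, 0 to 2 for recovery and 5 to 10 for repeated atrophy, 0 to 5, 0 and 1 to 4 mitochondrial ones, 0 to 4 in recovery against atrophy and 4 to 9 in repeated atrophy against recovery. The count over all rows moved too, and was 2498 of 13998 in atrophy without atrophy animal 2. Of the 9 fits that left out 1 animal, Farsb and Tars2 in atrophy were called in 2 each, Aars2 in atrophy in 6 and Farsa in recovery in 4; animals of other groups share the estimate of the spread. No call was made in repeated atrophy against atrophy or in sham left limbs in any of these alternatives. The cause of these shifts was not tested. The 3 limbs a group limit the precision of every change given.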
